A study of Rattus norvegicus with 20 samples.

Results

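Cell cycle and DNA replication genes were followed in the whole blood of rats on 4 diets. The list held 35 genes, and a row of the count table was taken where its gene symbol matched (the row with most reads where a symbol repeated). Of the 35, 32 had a row among the 32882 genes, and all 32 were among the 16734 genes that passed the filter on low counts. E2f1, Chek1 and Ccnb2 are not analysed here. The animals were male wild type Fischer 344 rats, labelled as 8 weeks of age, and every group ate the choline-sufficient amino acid-defined (CSAA) diet. For 20 days this diet carried 1.34 g/kg pterostilbene (CSAA+PTS, 5 rats), 1.2 g/kg resveratrol (CSAA+RSV, 5 rats, 4 used), 1.9 g/kg chlorogenic acid (CSAA+CGA, 5 rats) or no compound (CSAA, 5 rats). Pterostilbene and resveratrol are stilbenes that differ in that pterostilbene carries methoxy groups in place of hydroxyl groups, and chlorogenic acid is a polyphenol of another class. The rats were healthy and were housed in pairs, and which rats shared a cage was not stated in the sources read. Each value is for 1 rat, RNA was read from unsorted blood, and the question was whether the added compound changed these genes.

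A dividing cell first licenses its origins of replication, when CDC6 and CDT1 load the MCM helicase onto DNA, and then copies the genome with PCNA, the sliding clamp, and nucleotides supplied by thymidine kinase, thymidylate synthase and ribonucleotide reductase. Cyclins A and B with CDK1 then drive mitosis, in which Aurora and Polo kinases, kinesins and the spindle checkpoint act, and CDC20 with the anaphase-promoting complex ends it. Most mature blood cells have left the cycle. RNA of these genes in blood can come from activated lymphocytes, circulating progenitors and plasmablasts, and from reticulocytes, which still hold RNA from their last divisions in the marrow.

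Genes of this kind are known as targets of E2F factors in late G1 and of the DREAM and MuvB-B-MYB complexes in G2 and mitosis, and for this reason promoters are shown for 5 members that the comparisons below turn on and for Cdk1, the mitotic kinase. The 6 were chosen among members with a motif match. The windows of Ccne1 and Bub1, which the comparisons also name, held none of the 3 motifs (0 matches) and are not shown. RefSeq windows of 300 bases (250 before to 50 after the start, build GRCr8) were matched by symbol for 24 of the 32 measured members. Capitals mark matches, on either strand, to an E2F-type motif (TTT, then 2 bases that are each C or G, then CGC), to the cell cycle homology region (CHR, TTTGAA) and to the CCAAT box (CCAAT), and neighboring matches may overlap. The promoters of the helicase genes read
Mcm5 (chr19:13488563-13488862, plus strand): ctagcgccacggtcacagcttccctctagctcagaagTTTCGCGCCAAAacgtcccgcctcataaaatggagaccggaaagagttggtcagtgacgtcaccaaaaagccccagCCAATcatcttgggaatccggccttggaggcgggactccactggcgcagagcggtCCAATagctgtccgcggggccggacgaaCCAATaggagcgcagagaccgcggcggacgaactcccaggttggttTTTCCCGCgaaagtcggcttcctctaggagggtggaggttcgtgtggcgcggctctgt
Mcm6 (chr13:42404303-42404602, minus strand): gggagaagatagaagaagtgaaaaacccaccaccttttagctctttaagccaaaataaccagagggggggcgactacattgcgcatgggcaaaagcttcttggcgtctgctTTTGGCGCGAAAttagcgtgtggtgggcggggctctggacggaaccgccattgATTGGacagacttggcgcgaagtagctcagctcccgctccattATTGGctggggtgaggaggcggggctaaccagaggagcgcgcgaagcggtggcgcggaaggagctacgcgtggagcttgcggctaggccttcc
and those of a histone chaperone and of 3 mitotic regulators read
Asf1b (chr19:41100303-41100602, minus strand): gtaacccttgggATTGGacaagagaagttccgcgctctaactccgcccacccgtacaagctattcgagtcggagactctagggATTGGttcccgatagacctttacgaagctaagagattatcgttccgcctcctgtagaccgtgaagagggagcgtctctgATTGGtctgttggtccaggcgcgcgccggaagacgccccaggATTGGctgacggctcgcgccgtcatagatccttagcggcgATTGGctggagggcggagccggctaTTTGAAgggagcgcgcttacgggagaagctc
Cdc20 (chr5:137255750-137256049, minus strand): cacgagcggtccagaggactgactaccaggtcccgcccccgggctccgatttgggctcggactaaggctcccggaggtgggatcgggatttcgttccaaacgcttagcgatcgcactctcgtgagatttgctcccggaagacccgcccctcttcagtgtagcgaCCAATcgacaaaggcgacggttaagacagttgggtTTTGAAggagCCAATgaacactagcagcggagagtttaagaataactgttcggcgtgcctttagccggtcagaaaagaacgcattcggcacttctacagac
Mastl (chr17:90195375-90195674, minus strand): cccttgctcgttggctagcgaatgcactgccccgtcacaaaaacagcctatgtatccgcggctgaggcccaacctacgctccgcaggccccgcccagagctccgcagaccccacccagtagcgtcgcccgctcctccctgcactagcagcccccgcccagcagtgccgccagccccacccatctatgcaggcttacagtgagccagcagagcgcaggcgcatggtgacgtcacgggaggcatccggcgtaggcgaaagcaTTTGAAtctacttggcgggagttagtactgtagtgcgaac
Cdk1 (chr20:19265043-19265342, plus strand): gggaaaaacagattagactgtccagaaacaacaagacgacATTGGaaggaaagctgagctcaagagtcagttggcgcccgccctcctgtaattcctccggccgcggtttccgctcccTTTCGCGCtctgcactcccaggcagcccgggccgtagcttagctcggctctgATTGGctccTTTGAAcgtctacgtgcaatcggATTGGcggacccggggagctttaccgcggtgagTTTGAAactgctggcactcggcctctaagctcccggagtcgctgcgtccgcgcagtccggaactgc

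The E2F-type motif was in 8 of the 24 member windows, namely Mcm2, Mcm3, Mcm5, Mcm6, Mcm7, Tyms, Cdt1 and Cdk1, and in 2.14% of all 33469 promoter windows. The CHR was in 10 of the 24, against 18.3% of all windows, and the CCAAT box was in 15 of the 24, against 37.5%. Asf1b, Birc5, Cdc20, Cdk1, Mki67, Plk1 and Top2a held both a CHR and a CCAAT box (7 of 24, against 7.41% of all windows). Of the promoters printed, Mastl had a CHR and neither of the other motifs, and Cdk1 had all 3. A match shows the letters in the window and was not tested as a binding site.

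The 19 libraries used held 24036703 to 36743103 counts. The library of CSAA+RSV rat 4 had 861072 and was left out (the study also left out 1 CSAA+RSV sample), and in it Tk1 had 124 reads and Mastl and Cdt1 had 0. Blood cell markers were present in every library, with summed levels over the 19 rats of 188 to 257 CPM (counts scaled to library size) for T cell, 69.7 to 132 for B cell and 1040 to 1839 for monocyte markers. Markers of blood progenitors summed to 4.46 to 9.89 CPM, and 3 of their 8 genes (Elane, Prtn3 and Ctsg) did not pass the filter. Hemoglobin RNA of 10 genes took 6.56% ± 2.97 of counts with CSAA+PTS (SD, n = 5), 8.42% ± 3.42 with CSAA+RSV (n = 4) and 11.9% ± 3.79 with CSAA+CGA (n = 5), against 13.6% ± 2.19 with CSAA (n = 5). In the fifth rat of each diet 25104 to 29543 genes had a count, against 19600 to 23632 in the other 15 rats. In a whole blood sample, fewer cells of a type and less RNA per cell cannot be told apart.

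All 32 members had reads in each of the 19 rats, and together they took 0.0610% to 0.0901% of a library's counts. Per length of the gene, Tk1, which phosphorylates thymidine, stood at 66.6 CPM per kb and was above 94.3% of the tested genes. Mki67, whose protein coats mitotic chromosomes, had 19.2 CPM per kb and Top2a, which untangles them, 18.9 CPM per kb. Pcna followed with 10.7 CPM per kb. Between these and the lowest members lay Tpx2, which builds the spindle (8.56 CPM per kb), Rrm2, the small subunit of ribonucleotide reductase (3.25 CPM per kb), and the loader Cdc6 (1.74 CPM per kb). Cyclin A2 (Ccna2) had 0.577 CPM per kb, Aurora kinase B (Aurkb) 0.451 CPM per kb and Foxm1, a transcription factor of mitotic genes, 0.289 CPM per kb. At the low end were the mitotic kinase Plk1 (0.216 CPM per kb) and the licensing factor Cdt1 (0.171 CPM per kb), each with as few as 6 reads in a rat. The members' median level was 3.15 CPM per kb and that of all genes tested was 2.14 CPM per kb. At least 100 reads in every rat were found for 19 members, while 5 had fewer than 20 in some rat.

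**Figure D1:**
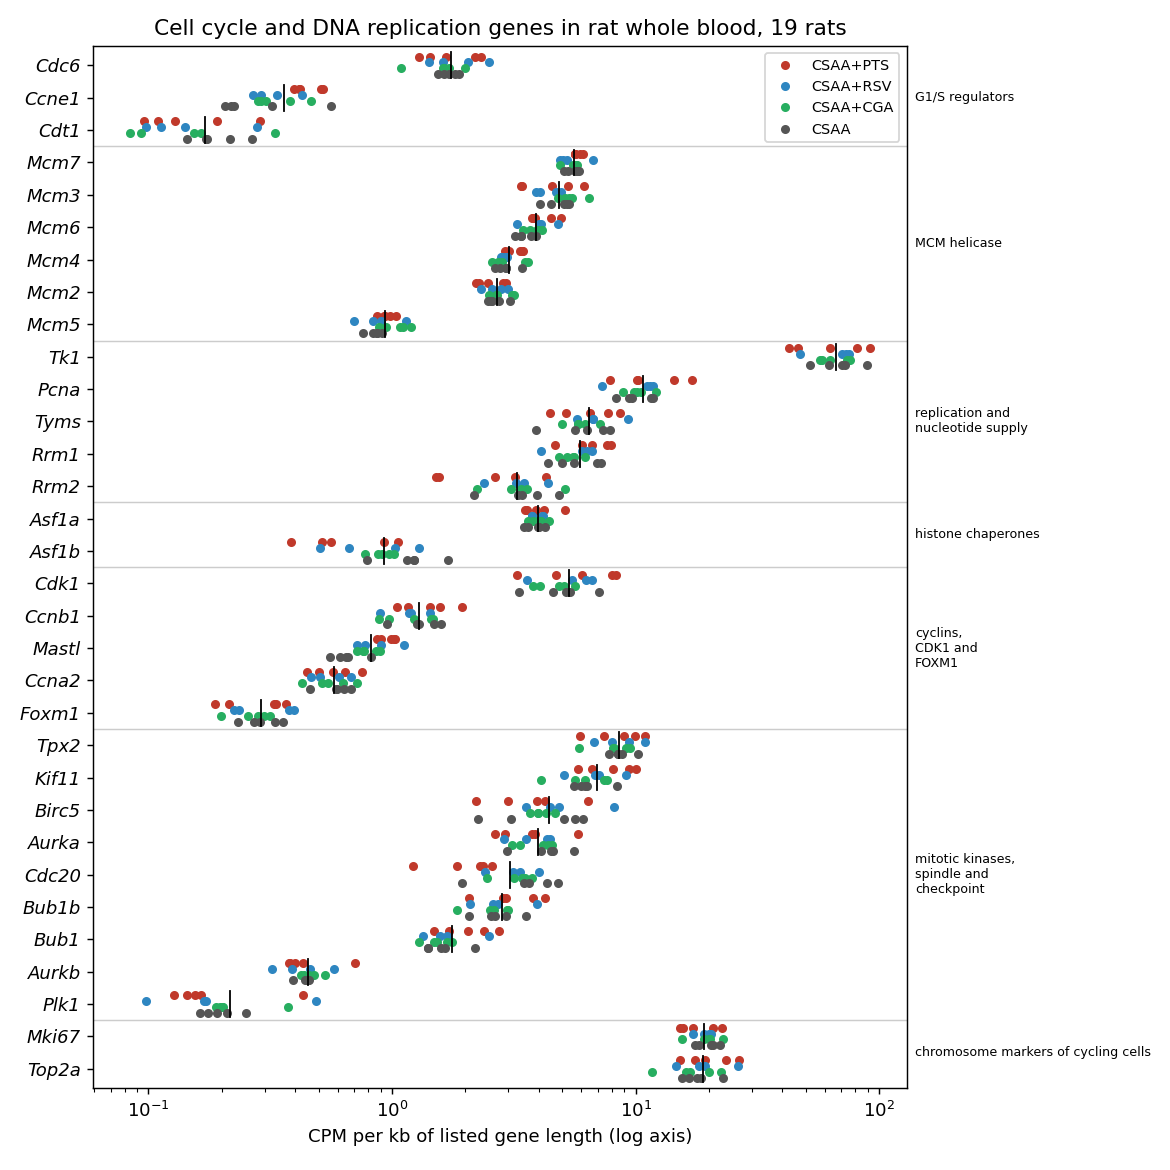
Level of the 32 measured members in each of 19 rats, as CPM per kb of listed gene length on a log axis, grouped by role (points: rats, colored by diet; vertical line: mean of 19 rats). Tk1 lay at 66.6 CPM per kb and Cdt1 at 0.171 CPM per kb, and within each gene the 4 diets covered overlapping or adjoining ranges.

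Under the usual scaling, by TMM factors, the spread between rats differed from gene to gene. The 6 subunits of the MCM helicase varied little, with a highest over lowest rat of 1.37 for Mcm7, 1.42 for Mcm4, 1.44 for Mcm2, 1.54 for Mcm6, 1.71 for Mcm5 and 1.89 for Mcm3. Asf1a, a histone chaperone used throughout the cycle, varied by 1.47 times. Its replication-linked family member Asf1b varied by 4.44 times, from CSAA+PTS rat 1 to CSAA rat 3, so across diets. Several genes of mitosis spread more widely, with 3.70 times for Birc5 (survivin, of the chromosomal passenger complex), 3.94 for Cdc20 and 4.99 for Plk1, and 3.93 for Cdt1. Others spread less, such as Tpx2 with 1.86 and Ccna2 with 1.77. Scaled by total counts alone, the helicase subunits ran from 1.92 (Mcm4) to 2.96 (Mcm3), and Asf1a had 2.25. By that scaling Aurka had 1.46, Bub1b 1.80, Birc5 3.06 and Plk1 7.38, so the contrast between roles depended on the scaling. Part of the spread of Asf1b, Plk1 and Cdt1 is counting error, since they had as few as 17, 6 and 6 reads. The biological coefficient of variation fitted by edgeR had a median of 21.3% over the members and 22.4% over all genes.

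Under the usual scaling many members were high in the same rats, as the heat map of the 19 rats shows. CSAA+PTS rat 3 held the highest value of 9 members and CSAA+RSV rat 3 of 5. The rats numbered 3 held the highest value for 17 of the 32 members, against 22.9% of all genes tested, and the fifth rats held the lowest value for 11 members, against 27.4% of all genes. Both counts depended on the scaling. With the libraries scaled by total counts alone the rats numbered 3 were highest for 5 members (6.32% of all genes), and the fifth rats were lowest for 2 (4.53% of all genes) and highest for 17 (67% of all genes). The TMM factors, which set the usual scaling, were 1.43 for the fifth rat of CSAA+PTS, 1.35 for that of CSAA+RSV and 1.15 for that of CSAA+CGA, against 1.04 for that of CSAA. The rats numbered 3 had 0.858 with CSAA+PTS, 0.910 with CSAA+RSV and 0.910 with CSAA+CGA, against 0.754 with CSAA. Cdc20 was lowest in CSAA+PTS rat 5 under both scalings (2.68 CPM, and 3.84 CPM by total counts), while the lowest Tk1 was in CSAA+PTS rat 5 under the usual scaling (94.7 CPM) and in CSAA+PTS rat 1 by total counts (116 CPM).

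Plk1, which drives entry into and exit from mitosis, was highest among the fifth rats. They had 0.962 CPM (33 reads) with CSAA+PTS, 1.09 CPM (42 reads) with CSAA+RSV and 0.835 CPM (34 reads) with CSAA+CGA, against 0.471 CPM (15 reads) with CSAA. The other 15 rats had 0.219 to 0.560 CPM (6 to 16 reads), so the fifth rats of the 3 supplemented diets lay above all of them and the fifth CSAA rat did not. In an edgeR fit with the replicate number beside the diet, 2 members differed between numbers, Plk1 (adjusted p = 0.0271) and Rrm1, the large subunit of ribonucleotide reductase (adjusted p = 0.0475), where 10% of all genes did. With the fifth rats left out neither members nor other genes were called (0 of each). Leaving out single rats gave 0 called members without CSAA+PTS rat 3 or 5 or CSAA+RSV rat 3 or 5. Without CSAA+CGA rat 5 there were 7 called members, where 2810 of 16745 genes were called. Over all fits without single rats 628 to 2810 genes were called, so calls among members and among all genes depended on few rats. What a shared number stands for was not found in the labels or methods. The library names also carry running numbers, which for rats 1 to 4 run in sets of 4 across the diets, but the fifth rats have 23 (CSAA+PTS), 22 (CSAA+RSV) and 24 (CSAA+CGA), against 17 for CSAA, so the fifth CSAA rat stands outside the set of the other 3. Without the fifth CSAA rat 1 member was called, where between 628 and 2810 genes were. What sets this pattern was not tested.

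**Figure D2:**
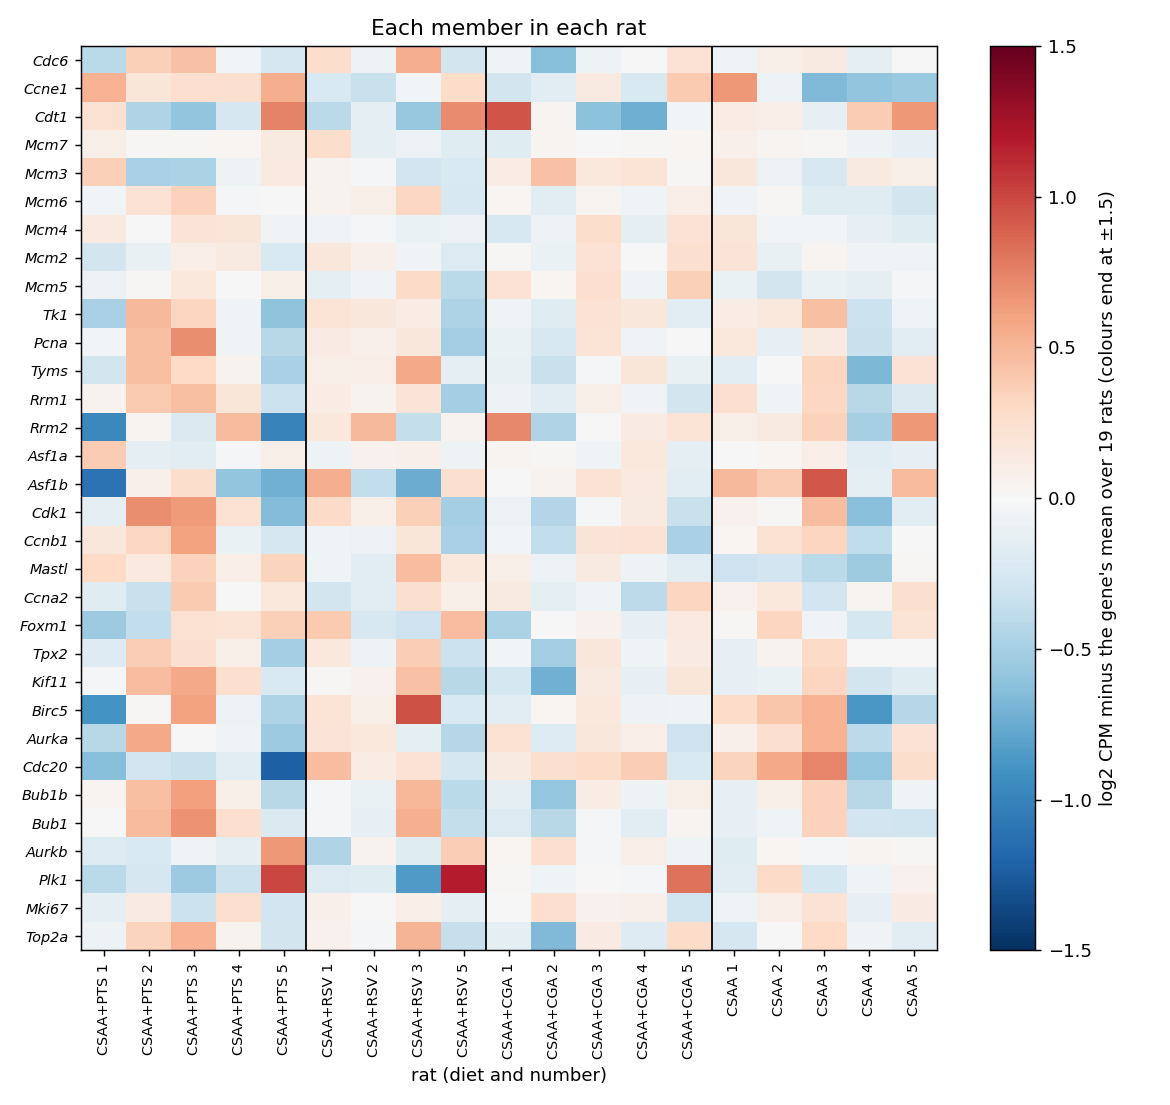
Each member (rows, by role) in each of 19 rats (columns, by diet and number), as log2 CPM minus the gene's mean over the rats, with colors ending at ±1.5. Rat 3 of CSAA+PTS, CSAA+RSV and CSAA is red over many mitotic genes, and Plk1 is dark red in rat 5 of CSAA+PTS, CSAA+RSV and CSAA+CGA.

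PTS was the compound with the most members under an unadjusted p of 0.05 against CSAA, but no member passed after adjustment. By edgeR's quasi-likelihood test with Benjamini-Hochberg adjustment 0 of 32 members and 0 of 16734 genes (0%) were called, and 0 members were called by DESeq2 (6 other genes were) or limma-voom (0 genes). At an unadjusted p under 0.05 there were 5 members of 32 (15.6%), where 7.58% of all genes were. Mastl, Mcm6 and Ccne1 were higher with CSAA+PTS (3 members, where 3.05% of all genes were) and Cdc20 and Asf1b were lower (2 members, where 4.54% were). The median log2 fold change of the members was 0.07 and that of all genes 0.02. The count of 5 was 3 without CSAA rat 4 (5.44% of all genes), CSAA rat 5 (5.64%) or CSAA+PTS rat 3 (4.97%), and also 3 without the fifth rat of each diet (9.17%). It was 3 with no filter (6.2%) and 6 with the replicate number as a block (12.2%). Scaled by total counts alone it was 11 (9 higher, 2 lower), a scaling under which all genes shifted by 0.20 on the log2 scale and 12.4% of all genes were under that p.

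Mastl, the Greatwall kinase, which holds the phosphatase PP2A-B55 in check so that mitosis can proceed, had the lowest p of the members. It had 5.41, 4.88, 5.60, 4.71 and 5.54 CPM in the CSAA+PTS rats, against 3.52, 3.57, 3.31, 3.01 and 4.46 CPM in the CSAA rats. All 5 CSAA+PTS rats lay above all 5 CSAA rats, and Mastl was the 1 member whose groups did not overlap, where 1.39% of all genes had such groups. Its log2 fold change was 0.55 (SE 0.127, 95% interval 0.28 to 0.81, adjusted p by edgeR = 0.599). It stayed between 0.49 and 0.64 with each rat of these groups left out, and DESeq2 gave an adjusted p of 0.0586.

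Cdc20, the activator of the anaphase-promoting complex, had 4.05, 5.17, 5.03, 5.66 and 2.68 CPM with CSAA+PTS, against 7.98, 9.46, 10.6, 4.23 and 7.66 CPM with CSAA. The groups overlapped only through CSAA rat 4, which was lower than 3 of the CSAA+PTS rats. The log2 fold change was -0.82 (SE 0.223, 95% interval -1.29 to -0.35, adjusted p by edgeR = 0.599). Asf1b, which hands histones to newly copied DNA, had 0.609, 1.46, 1.68, 0.895 and 0.816 CPM with CSAA+PTS, against 1.96, 1.82, 2.70, 1.25 and 1.95 CPM with CSAA. CSAA+PTS rats 2 and 3 lay above CSAA rat 4, and the other CSAA+PTS rats lay below every CSAA rat. Its log2 fold change was -0.83 (SE 0.282, 95% interval -1.42 to -0.24, adjusted p by edgeR = 0.613), on 17 to 47 reads per CSAA+PTS rat.

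The CSAA+PTS rats also had less hemoglobin RNA than the CSAA rats, as given above, and the summed markers of red cells (13 of 15 with a row, none at 0) ran from 39900 to 127027 CPM with CSAA+PTS and from 87803 to 159778 CPM with CSAA. With hemoglobin RNA as a covariate, chosen after the data were seen, the log2 fold change was -0.41 for Cdc20 (adjusted p by edgeR = 0.614). It was -0.31 for Asf1b (adjusted p by edgeR = 0.712) and 0.43 for Mastl (adjusted p by edgeR = 0.597). Hemoglobin RNA was itself lower on average with CSAA+PTS, so this fit cannot tell the diet and hemoglobin RNA apart. With young reticulocyte RNA as a covariate instead, Cdc20 had -0.90 and was called (adjusted p by edgeR = 0.0229), 1 of 9 genes called in that fit. At an unadjusted p under 0.05 by edgeR there were 3 members with the hemoglobin covariate (8.17% of all genes). With the reticulocyte covariate there were 6 (9.84%).

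Mcm6, a subunit of the helicase, averaged 12.2 ± 1.53 CPM with CSAA+PTS and 10.3 ± 0.846 CPM with CSAA (SD, n = 5 each), which is a log2 fold change of 0.24 (SE 0.110, adjusted p by edgeR = 0.642). Ccne1, cyclin E1, which starts DNA synthesis with CDK2, averaged 0.885 ± 0.117 CPM with CSAA+PTS and 0.599 ± 0.292 CPM with CSAA (SD, n = 5 each), which is a log2 fold change of 0.57 (SE 0.270, adjusted p by edgeR = 0.656). CSAA rat 1, at 1.10 CPM, was the highest of all rats for Ccne1, and the other CSAA rats were below every CSAA+PTS rat.

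No change was detected in the members most used as signs of dividing cells, and the values of some moved with the scaling and the rats. Mki67 averaged 181 ± 32.6 CPM with CSAA+PTS and 196 ± 19.1 CPM with CSAA (SD, n = 5 each), with a log2 fold change of -0.11 (SE 0.129) that was 0.09 when scaled by total counts alone. The log2 fold change was 0.16 (SE 0.189) for Top2a, 0.24 (SE 0.183) for Pcna, 0.25 (SE 0.238) for Cdk1, 0.12 (SE 0.198) for cyclin B1 (Ccnb1) and 0.08 (SE 0.104) for Asf1a. The value of Cdk1 was 0.38 when scaled by total counts alone (adjusted p by edgeR = 0.277), 0.59 with hemoglobin RNA as a covariate (adjusted p by edgeR = 0.597), 0.13 without CSAA rat 4 and 0.44 without CSAA rat 3. That of Pcna was 0.37 by total counts (adjusted p by edgeR = 0.240), 0.07 without CSAA+PTS rat 3 and 0.36 without CSAA+PTS rat 5. Mcm2 had -0.07 (SE 0.109), which was 0.12 when scaled by total counts alone. Under the usual scaling none of these intervals reached a 2-fold change, and over the 32 members 27 had 95% intervals that lay within 2-fold in both directions. The 9 genes of mitotic kinases, spindle and checkpoint had a median of 0.05 and ran from -0.82 (Cdc20) to 0.34 (Bub1), while the 6 helicase subunits had a median of 0.10 and ran from -0.09 to 0.24.

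**Figure D3:**
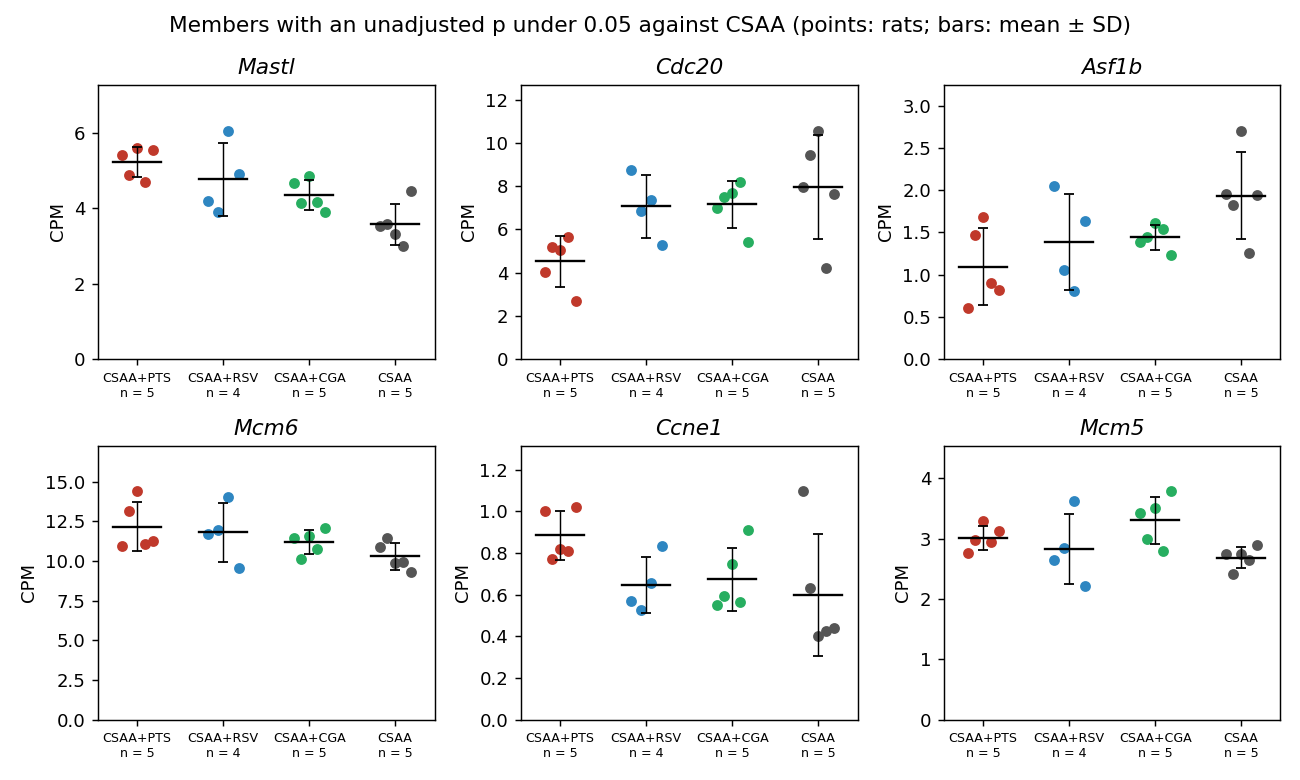
CPM of the 6 members with an unadjusted p under 0.05 against CSAA for some compound (points: rats, horizontal bars: mean, whiskers: SD, linear axes from 0). The 5 CSAA+PTS rats lay above the 5 CSAA rats for Mastl, while in the other panels the groups overlapped.

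Against the same CSAA rats, RSV and CGA gave fewer members at an unadjusted p under 0.05. With RSV 1 of 32 was under it (3.12%, where 2.12% of all genes were), and edgeR called 0 members and 0 genes (0%), as did DESeq2 and limma-voom. That member was Mastl, with 4.20, 3.89, 6.06 and 4.92 CPM in the CSAA+RSV rats and a log2 fold change of 0.41 (SE 0.134, adjusted p by edgeR = 1.00). CSAA+RSV rats 1 and 2 lay below CSAA rat 5, so the groups overlapped. The count was 2 without CSAA+RSV rat 1 (4.08% of all genes) or 5 (3.43%) and when scaled by total counts alone (2.44%), and without CSAA+RSV rat 3 the log2 fold change of Mastl was 0.28. The next lowest p belonged to Mcm6 (log2 fold change 0.20, SE 0.116) and Asf1b (-0.47, SE 0.296). Of the cycling cell genes, the log2 fold change with RSV was -0.05 (SE 0.137) for Mki67, 0.10 (SE 0.200) for Top2a, 0.04 (SE 0.194) for Pcna, -0.16 (SE 0.211) for Ccnb1, 0.10 (SE 0.253) for Cdk1 and 0.03 (SE 0.110) for Asf1a. Mcm2 was at -0.00345 (SE 0.115), and the sign of Mki67 and of Mcm2 turned when scaled by total counts alone.

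With CGA 2 of 32 members were under an unadjusted p of 0.05 (6.25%, where 0.639% of all genes were), and edgeR, DESeq2 and limma-voom called 0 members and 0 genes (0% with edgeR). Mcm5, another helicase subunit, had 3.42, 3.00, 3.50, 2.80 and 3.78 CPM with CSAA+CGA, against 2.74, 2.42, 2.75, 2.64 and 2.89 CPM with CSAA. Only CSAA+CGA rat 4 lay inside the range of the CSAA rats. The log2 fold change was 0.30 (SE 0.125, adjusted p by edgeR = 1.00). Mastl had 4.68, 4.13, 4.84, 4.15 and 3.90 CPM with CSAA+CGA and a log2 fold change of 0.28 (SE 0.127, adjusted p by edgeR = 1.00), and CSAA rat 5 lay among these values. Asf1b had the third lowest p (log2 fold change -0.42, SE 0.276). With CGA the log2 fold change was -0.02 (SE 0.129) for Mki67, -0.07 (SE 0.189) for Top2a, 0.03 (SE 0.183) for Pcna, 0.08 (SE 0.108) for Mcm2, -0.13 (SE 0.198) for Ccnb1, -0.13 (SE 0.239) for Cdk1 and 0.04 (SE 0.104) for Asf1a. The sign of Mki67 and of Top2a turned when scaled by total counts alone. The count of 2 was 0 without CSAA rat 2 (0.529% of all genes) or CSAA+CGA rat 1 (1.3%) or 3 (0.553%) and when scaled by total counts alone (0.239%). It was 1 without CSAA rat 3 (0.81%), CSAA rat 4 (0.946%), CSAA+CGA rat 5 (0.788%) or the fifth rat of each diet (1.5%).

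Mastl was thus under an unadjusted p of 0.05 against CSAA with each compound, and these comparisons share their CSAA rats, in which Mastl was 3.57 ± 0.541 CPM (SD, n = 5). In a test of any difference among the 4 diets, Mastl and Cdc20 were the 2 members under 0.05, at an unadjusted p, where 3.12% of all genes were, and the edgeR adjusted p of each was 1.00. With edgeR 0 members and 0 genes (0%) were called in that test. DESeq2 called 2 genes, neither of them a member.

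**Figure D4:**
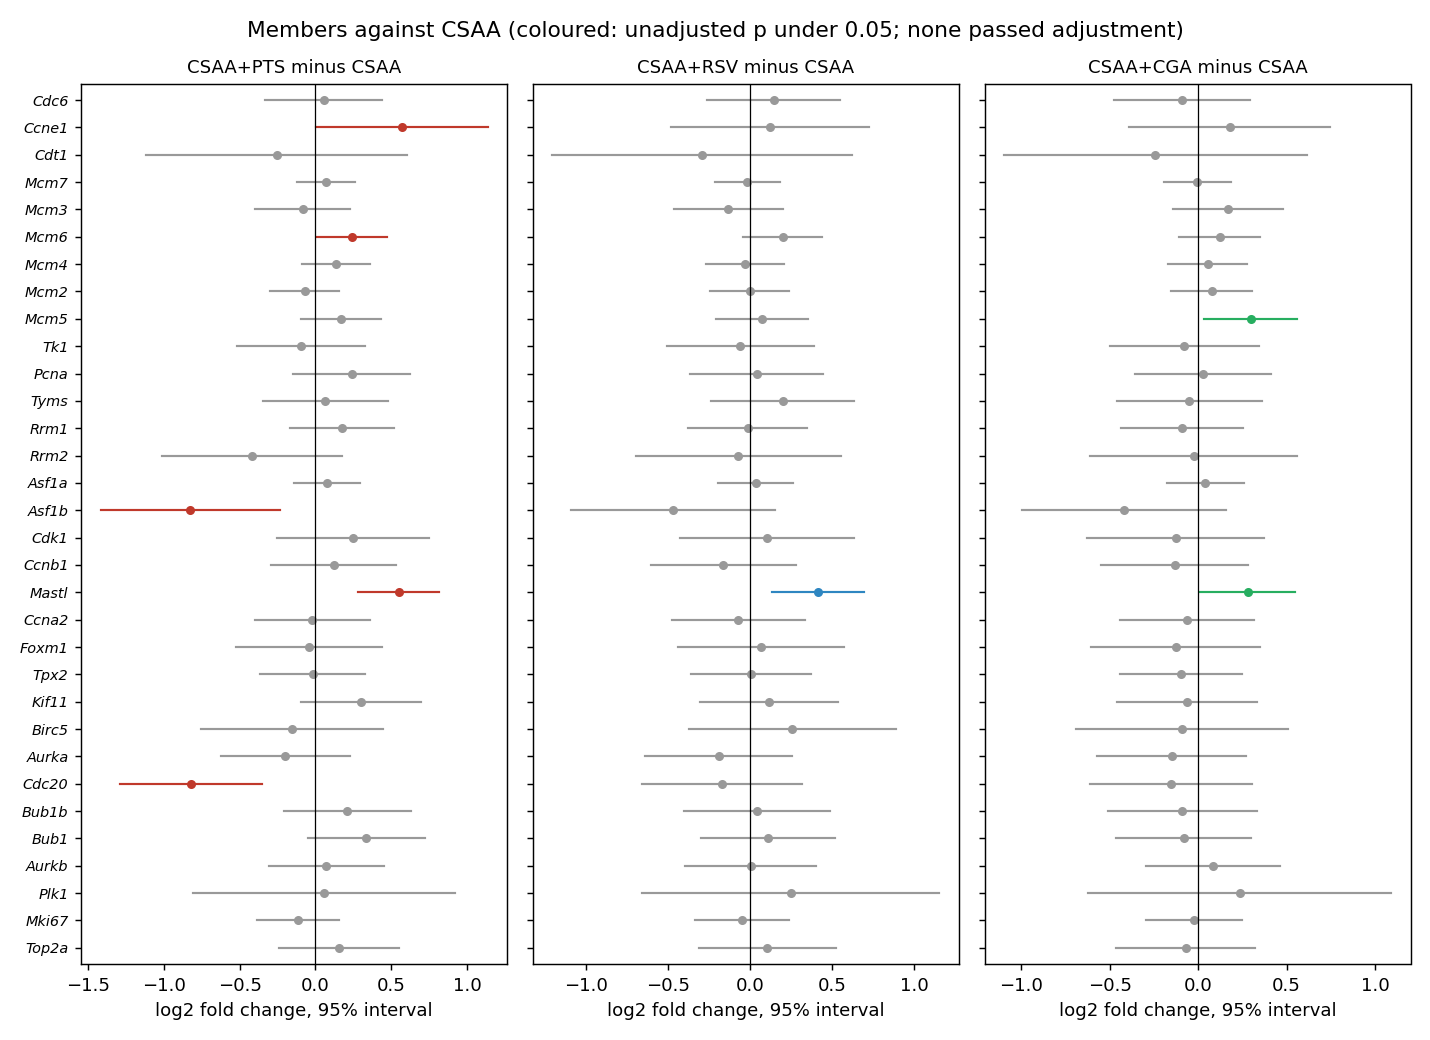
Log2 fold change of each of the 32 members in CSAA+PTS, CSAA+RSV and CSAA+CGA rats minus CSAA rats, with 95% intervals from edgeR (colored: unadjusted p under 0.05, gray: the rest, and the horizontal axes differ between panels). Most intervals cross 0, and the widest belong to Plk1 and Cdt1, the members with the fewest reads per length.

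The 2 stilbenes were set side by side at doses that the study chose to be equal in moles. Between CSAA+PTS and CSAA+RSV rats edgeR called 0 members and 0 genes (0%), and 1 of 32 members was under an unadjusted p of 0.05 (3.12%, where 3.06% of all genes were). DESeq2 and limma-voom with sample weights also called 0 members, and each called 1 gene. The member under 0.05 was Cdc20, at 4.52 ± 1.18 CPM with CSAA+PTS (SD, n = 5) and 7.07 ± 1.45 CPM with CSAA+RSV (SD, n = 4), which is a log2 fold change of -0.65 (SE 0.234, 95% interval -1.14 to -0.16, adjusted p by edgeR = 1.00). CSAA+PTS rat 4, at 5.66 CPM, lay above CSAA+RSV rat 5, at 5.26 CPM. The count was 2 without CSAA+RSV rat 3 (5.76% of all genes) or CSAA+PTS rat 3 (2.72%). For Mastl the difference between the 2 compounds was 0.13 (95% interval -0.15 to 0.41) on the log2 scale, with 0.07 without CSAA+RSV rat 2 and 0.27 without CSAA+RSV rat 3. For Asf1b it was -0.36 (95% interval -0.98 to 0.27), with -0.56 without CSAA+PTS rat 3 and -0.11 without CSAA+RSV rat 1, and for Mki67 -0.06 (SE 0.137). Of the 32 members, 28 had 95% intervals within 2-fold in both directions.

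Between CSAA+PTS and CSAA+CGA rats 3 of 32 members were under an unadjusted p of 0.05 (9.38%, where 5.22% of all genes were), and edgeR called 0 members and 0 genes (0%), as did DESeq2 and limma-voom for the members. Cdc20 had a log2 fold change of -0.66 (SE 0.222, adjusted p by edgeR = 0.828), with 7.16 ± 1.08 CPM in the CSAA+CGA rats (SD, n = 5). Bub1, a spindle checkpoint kinase, averaged 9.35 ± 2.29 CPM with CSAA+PTS and 6.99 ± 0.839 CPM with CSAA+CGA (SD, n = 5 each), which is a log2 fold change of 0.42 (SE 0.182, adjusted p by edgeR = 0.828). Mastl had 0.27 (SE 0.126, adjusted p by edgeR = 0.828). The count of 3 was 6 without CSAA+PTS rat 5 (11.4% of all genes), 8 without the fifth rat of each diet (14.4%), 1 without CSAA+CGA rat 2 (2.85%) or 4 (3.26%), 2 without CSAA+CGA rat 1 (4%), CSAA+PTS rat 2 (6.23%) or CSAA+PTS rat 3 (2.77%), and 7 when scaled by total counts alone (7.35%). Between CSAA+RSV and CSAA+CGA rats edgeR called 0 members and 0 genes (0%), and 0 members were under an unadjusted p of 0.05, where 1.95% of all genes were. That count was 1 without CSAA+RSV rat 3 (1.82% of all genes) or the fifth rat of each diet (7.15%).

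Other genes of the cycle, taken from a list of 105 of which 103 were tested, also gave 0 calls by edgeR in any comparison. Against CSAA, 6 were under an unadjusted p of 0.05 with PTS (3 higher and 3 lower, 5.83%, where 7.58% of all genes were), 4 with RSV (3.88%, where 2.12% were) and 0 with CGA (0%, where 0.639% were). The 3 with the lowest p for PTS were Pttg1 (securin, which CDC20 marks for destruction) at -0.49 (SE 0.198, adjusted p by edgeR = 0.640), Mcm8 (a helicase of DNA repair) at 0.73 (SE 0.296, adjusted p by edgeR = 0.640) and Cdkn1c (the CDK inhibitor p57) at 1.49 (SE 0.607, adjusted p by edgeR = 0.640), each as a log2 fold change. Cdkn1c averaged 0.235 ± 0.0805 CPM with CSAA+PTS and 0.0804 ± 0.0486 CPM with CSAA (SD, n = 5 each), so that it rested on a few reads per rat. The 35 other replication factors had a median log2 fold change of 0.14 with PTS, and 27 of them were above 0. The 35 other mitosis genes had a median of 0.15, with 22 above 0. The 22 CDKs, D cyclins and RB family genes had a median of 0.02, with 12 above 0, and the 11 inhibitors and brakes tested had -0.08, with 3 above 0. Over all genes the median was 0.02 and 52.8% were above 0.

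Within the diets, many members were higher in rats with more RNA of young reticulocytes, although no call was left when libraries were scaled by total counts alone. These red cells have just left the marrow, and their RNA was summed over Tfrc, Trim10, Trim58 and Rhag (4 of 5 listed genes had a row). The sum ran from 205 to 423 CPM with CSAA+PTS, 226 to 343 CPM with CSAA+RSV and 196 to 354 CPM with CSAA+CGA, against 188 to 349 CPM with CSAA. In an edgeR fit with diet and the log2 of this sum, 14 of 32 members had a slope past an adjusted p of 0.05, where 28.7% of all genes did. Of these, 12 were positive, where 13% of all genes were, and 2 were negative, where 15.8% were. The relation was chosen after the data were seen, as 1 of 8 sums of cell type or hemoglobin RNA tried. The same fits called 6 members with platelet RNA (30.8% of all genes) and 1 with hemoglobin RNA (5.83%). They called 0 with T cell (0%), B cell (0.0777%), neutrophil (0.717%), monocyte (0.138%) or NK cell RNA (0.155%). All 6 platelet slopes were positive, where 13.5% of all genes were called positive, and 0 were negative, where 17.3% were. These 6 were Cdk1, Tk1, Aurka, Ccnb1, Pcna and Rrm1, which were also called with a positive slope on reticulocyte RNA.

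The members with a called positive slope were mostly genes of mitosis and of nucleotide supply. Cdk1 had a slope of 1.07 (SE 0.160, adjusted p by edgeR = 0.000334), which is log2 CPM per log2 unit of reticulocyte RNA, and Birc5 had 1.05 (SE 0.270). Cdc20 had 0.92, Tk1 0.87, Aurka 0.82, Tyms 0.81 and Ccnb1 0.75. Bub1b had 0.68, Rrm1 0.65, Pcna 0.60, Bub1 0.59 and the spindle motor Kif11 0.54. No helicase subunit was called, and their slopes ran from -0.39 for Mcm3 to 0.21 for Mcm6. Mki67 had 0.32 (adjusted p by edgeR = 0.0840). Mitosis genes that were not called went either way, with 0.46 for Tpx2, 0.02 for Mastl, -0.30 for Foxm1, -0.32 for Ccna2 and -0.34 for Aurkb. The negative slopes belonged to Cdt1 (-1.34) and Plk1 (-1.18), and without the fifth rats that of Plk1 was -0.05.

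These calls depended on the rats and on the scaling. Without the fifth rats 3 members were called (Cdk1, Tk1 and Tyms, with 2.41% of all genes), and with the libraries scaled by total counts alone 0 members were called, where 0.0179% of all genes were. Under that scaling Cdk1 had a slope of 0.50 and Tk1 0.38, the median slope was -0.09 over the members and -0.13 over all genes, and with the usual scaling these medians were 0.42 and -0.11. The count was 8 without CSAA+PTS rat 5 (10% of all genes) and 9 without CSAA+RSV rat 5 (18.1%). Without CSAA+PTS rat 2 and CSAA rat 4, the rats farthest from the median sum, 12 were called (25.9% of all genes). With the replicate number as a block 2 were called (Cdk1 and Tyms, with 1.76% of all genes). Members and markers share a library and its scaling factor, and the part that this plays in the slopes was not tested.

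**Figure D5:**
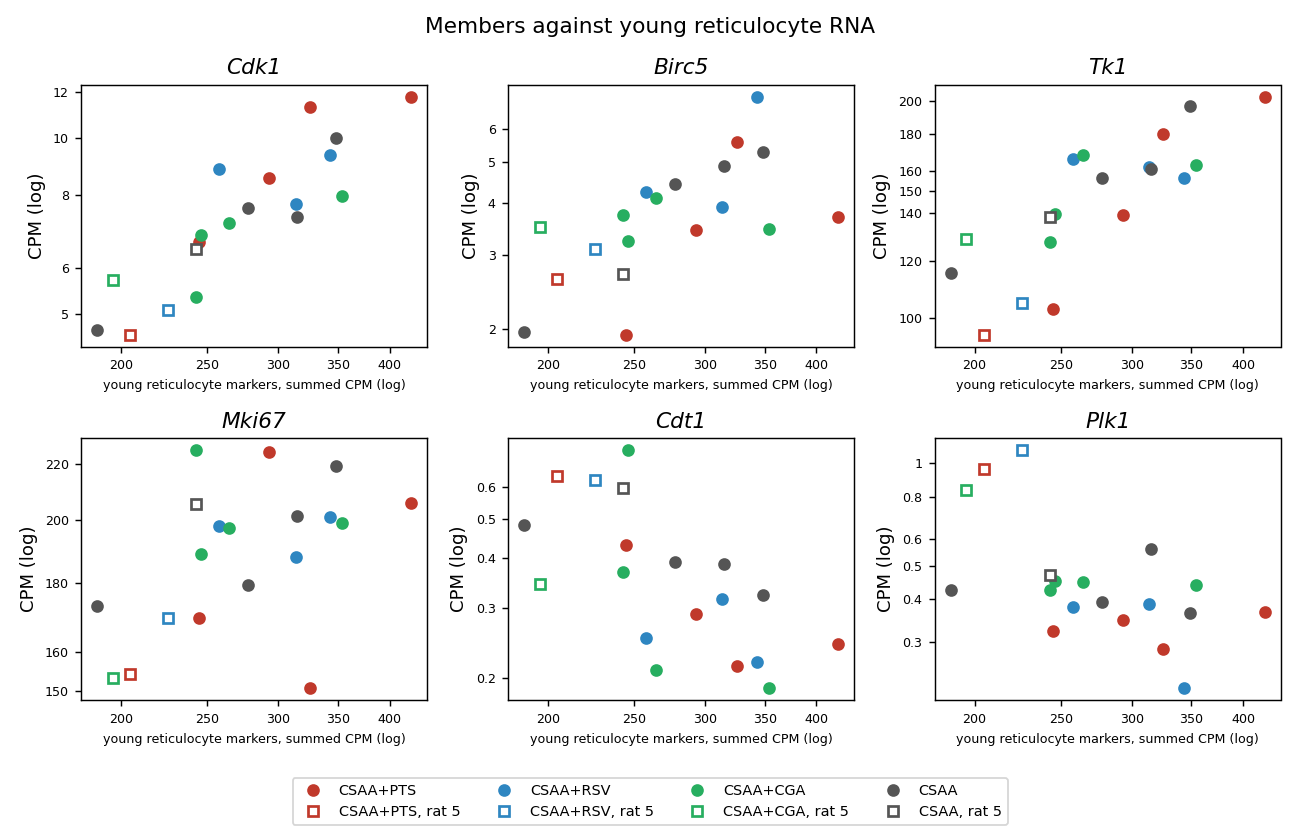
CPM of 6 members against the summed CPM of young reticulocyte markers in 19 rats, both on log axes (filled circles: rats 1 to 4, open squares: rat 5 of each diet, colored by diet). Cdk1, Birc5 and Tk1 are higher to the right, Mki67 is spread more evenly, and the 3 highest Plk1 values are open squares on the left.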

How the data were processed

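Whole blood RNA of 20 rats was sequenced by the authors as 50 bp single reads from TruSeq Stranded libraries, 4 rats per lane. Per the labels' processing notes the tools were Trimmomatic 0.32, FastQC 0.11, TopHat2 2.1 (rat build rn6) and DESeq2 1.30, and the paper names Rsubread for counting. The deposited values are whole-number read counts per Ensembl gene, not normalized. The strand setting used in counting was not found in the labels or methods, so reads of antisense neighbors may be included. No column of per-sample values was left unused (0).

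CSAA+RSV rat 4 was left out. The filter dropped any gene that had under 2 reads in at least 5 of the 19 rats, and 16734 stayed. CPM scale the counts by the TMM-adjusted library size, and CPM per kb divides by the gene length in the count table. Tests of diet ran under R 4.3.3 in edgeR 4.0.16 (quasi-likelihood test, two-sided, 1 fit over the 4 diets), with p adjusted by Benjamini-Hochberg over all genes tested and 0.05 as the limit. The script was tested on simulated data. DESeq2 1.42.0, limma 3.58.1, other scalings and filters, a replicate block, and fits without single rats, without the fifth rats and with rat 4 were alternatives. Slopes used libraries without the hemoglobin genes. Each p sets a difference or slope against the spread between rats, which were taken as independent although they were housed in pairs. Promoter sequences are from RefSeq.

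The members and the lists were chosen with earlier results of these data known. Every member is described by its level or within a count. Fold changes are given for 8 fixed members. Of these, Mki67, Top2a, Pcna, Mcm2, Ccnb1 and Cdk1 were chosen by role, and Asf1a and Asf1b because the study discusses them. The study reported Asf1b as lower with PTS in these same rats. That result came from DESeq2 with diet and estimated T cell, B cell and macrophage scores in the model. Asf1b was not among the genes that the study named from its model of diet alone. The main fit here held diet alone, so the result of the study and the one here come from different models. Fold changes are also given for the 3 members with the lowest p in each comparison with CSAA. The same holds for the 3 genes of the other list with the lowest p for PTS. Ccne1, Mcm6 with PTS, Bub1, Mastl and Cdc20 between compounds, Plk1 and the slopes were picked after their values were seen.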

Additional observations from a re-analysis of the deposited data

Results flagged for a closer look

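Pcna in CSAA+RSV rat 5 stood apart from the other rats of its diet. It was at 8.46 CPM, and the other 3 CSAA+RSV rats were at 12.9 to 13.7 CPM, so that on the log2 scale its gap to the next rat was 0.872 of the range of the 4 rats. It was the 1 such case among 32 groups looked at (8 members in 4 diets), where chance gives about 1 in 20 groups. Rat 5 of CSAA+RSV also held the highest Plk1 of the 19 rats, as described above.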

How the results depend on the processing

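In the 6 comparisons between diets no member was called under any setting but 1, in which young reticulocyte RNA was a covariate and Cdc20 was called for PTS against CSAA (1 member). The covariates, the highest and lowest rats by total counts, and the slopes with all their alternatives, were chosen after the data were seen. Over all genes, PTS against CSAA gave 6 calls with DESeq2, 26 with limma-voom and sample weights, 9 with the reticulocyte covariate and 0 to 8 without single rats (8 without CSAA+PTS rat 2). PTS against RSV gave 1 call with DESeq2, 1 with limma-voom and sample weights and 2 with the reticulocyte covariate, which gave 2 for PTS against CGA. DESeq2 called 2 genes for any difference among diets. Differences between replicate numbers were called for 3905 genes and 1 member when scaled by total counts alone, 7428 and 7 with no filter, 1 member with the filter set over 20 rats or with CSAA+RSV rat 4 kept, 0 and 0 without the fifth rats, and 628 to 2810 genes and 0 to 7 members without single rats. The slope on reticulocyte RNA was called for 0 members by total counts (0.0179% of all genes) and 3 without the fifth rats (2.41%). Without single rats it was called for 8 to 17 members, with 10% of all genes at 8 and 30.2% at 17. The cause of these shifts was not tested.

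Log2 fold changes near 0 changed sign. By total counts alone Mki67 had 0.0859 (PTS), 0.0926 (RSV) and 0.0579 (CGA), Mcm2 0.12 (PTS) and 0.13 (RSV) and Top2a 0.0236 (CGA). With hemoglobin RNA as a covariate Mki67 had 0.0562 (PTS), 0.0727 (RSV) and 0.0191 (CGA) and Ccnb1 0.0195 (RSV). With reticulocyte RNA Mki67 had 0.00317 (CGA) and Pcna -0.0103 (RSV). Without the fifth rats Mki67 had 0.00496 (RSV) and 0.0657 (CGA), Mcm2 0.0366 (RSV) and Pcna -0.0099 (CGA). With limma-voom and sample weights Mcm2 had 0.00305 (PTS) and 0.10 (RSV) and Ccnb1 -0.0656 (PTS). Mcm2 with RSV had 0.00061 under another filter (filterByExpr) and 0.0475 with CSAA+RSV rat 4 kept. Without single rats the ranges were, for PTS, -0.0141 to 0.23 for Ccnb1 and -0.0213 to 0.15 for Asf1a. For RSV they were -0.0905 to 0.00296 for Mki67, -0.0707 to 0.22 for Top2a, -0.0271 to 0.18 for Pcna, -0.0647 to 0.0615 for Mcm2, -0.0200 to 0.26 for Cdk1 and -0.00174 to 0.0745 for Asf1a. For CGA they were -0.0840 to 0.0496 for Mki67, -0.18 to 0.0431 for Top2a, -0.0385 to 0.0862 for Pcna and -0.25 to 0.0205 for Cdk1.

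The replicate numbers were not taken as pairs in the main fit, and some pairs of same-numbered rats deviated together while others did not. The correlations ran from 0.0482 to 0.514 for PTS and CSAA (4 of 5 pairs over 0.1). They ran from -0.296 to 0.715 for RSV and CSAA (3 of 4) and from -0.0987 to 0.468 for CGA and CSAA (3 of 5). Over the members alone they ran from -0.378 (rats 4) to 0.680 (rats 3) for PTS and CSAA. For RSV and CSAA they ran from -0.344 (rats 2) to 0.432 (rats 5), and for CGA and CSAA from -0.548 (rats 4) to 0.534 (rats 3). Many pairs did deviate together, so whether the numbers mark a shared factor is not settled. With the replicate block, 0 members and 0 genes were called in each comparison. At an unadjusted p under 0.05 by edgeR, PTS against CSAA then had 6 members (12.2% of all genes), against 5 (7.58%) without the block. PTS against CGA had 5 (10.2%), against 3 (5.22%). In the other comparisons the member count stayed the same, while the share of all genes rose. In the slope fit with the block 2 members (Cdk1 and Tyms) were called, where 1.76% of all genes were. Pcna with RSV was at -0.0149 and Mcm2 with RSV at 0.00325. Members with few reads had the widest 95% intervals, which depth limits, among them Plk1 and Cdt1 for PTS against CSAA.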
